A study of Mus musculus with 16 samples.

Results

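The small leucine-rich proteoglycans (SLRPs) were followed in the bladder of MAT and AGED mice of both sexes. The members were listed by symbol as Dcn, Bgn, Aspn, Fmod, Lum, Prelp, Omd, Ogn and Podn. A member was taken from the arrays where the accession of a probe mapped to its symbol, and this gave 1 probe for each of 8 of the 9 genes. Prelp is named only. These 8 genes stood among 26781 genes tested. RNA came from the bladder body of C57BL/6 mice, with 1 bladder on each of 16 arrays and 4 arrays in each group. MAT mice were 12 months old, AGED mice were 27 to 30 months old, and males and females were separate groups. The labels give no treatment and no altered allele in any group. The age range within AGED was not resolved per animal.

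SLRPs are secreted proteins of the extracellular matrix with a core of leucine-rich repeats. They bind collagen fibrils and set their spacing and thickness, and most carry glycosaminoglycan chains made of chondroitin, dermatan or keratan sulfate. Several also bind growth factors of the TGF-beta family or innate immune receptors. In the bladder wall they are made mainly by fibroblasts of the lamina propria and of the connective tissue between muscle bundles. The study asked, among other things, whether collagen in the bladder wall differs with age. By tissue staining it found no significant difference in either sex, with a tendency to more detrusor collagen in AGED males. The comparison of AGED with MAT mice of the same sex was made here for the transcripts of this family. Stained collagen and RNA are unlike measures.

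Levels are log2 processed signals less the 75th percentile of the same array, so 0 is the signal that 75% of the probes did not exceed. A difference of 1 is 2-fold. A gene was called where limma gave a Benjamini-Hochberg adjusted p under 0.05 over all genes and the change was at least 2-fold. Every sign follows the deposited labels, and a positive change is higher in AGED. This direction is opposite to the one the study gives for Mmp3 and S100a9, described further on, and for every other tested gene it lists as most changed in both sexes, by the sign of the change alone. Which of the labels or the listed directions holds cannot be settled from the arrays. If the age labels were exchanged, the sign of each age change here would turn. Slide and sex cannot be told apart, because the females were on 1 slide and the males on the other. Age and position on the slide cannot be told apart either, since MAT arrays filled row 1 and AGED arrays row 2 of each slide. Between 52.3% and 68.2% of the probes were well above background per array, and all 8 SLRP probes were well above background on all 16 arrays. Markers of urothelium (6 of 6 genes) and smooth muscle (7 of 7) were also well above background on each array, as the label bladder implies. In whole bladder tissue, fewer cells of a type and less RNA per cell cannot be told apart.

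No SLRP gene was called with age in either sex. In males 0 of 8 were called, where 0.851% of all genes tested were called, 0.276% higher and 0.575% lower. In females 0 of 8 were called, where the share of all genes was 0.190%, with 0.179% higher. At an unadjusted p under 0.05 with no fold limit, 1 of 8 passed in males (Ogn) against 16.2% of all genes, and 0 of 8 in females against 10.5%. The fitted change was below 0 for 7 of 8 genes in males, as it was for 49.8% of all genes, and for 3 of 8 in females against 50.9%. The median change of the 8 genes was -0.31 in males and 0.07 in females, and the medians of all genes were 0.0015 and -0.0063. The t-test of the methods with a 2-fold limit also found 0 of 8 in each sex, and the share of all genes under that test was not counted.

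**Figure D1:**
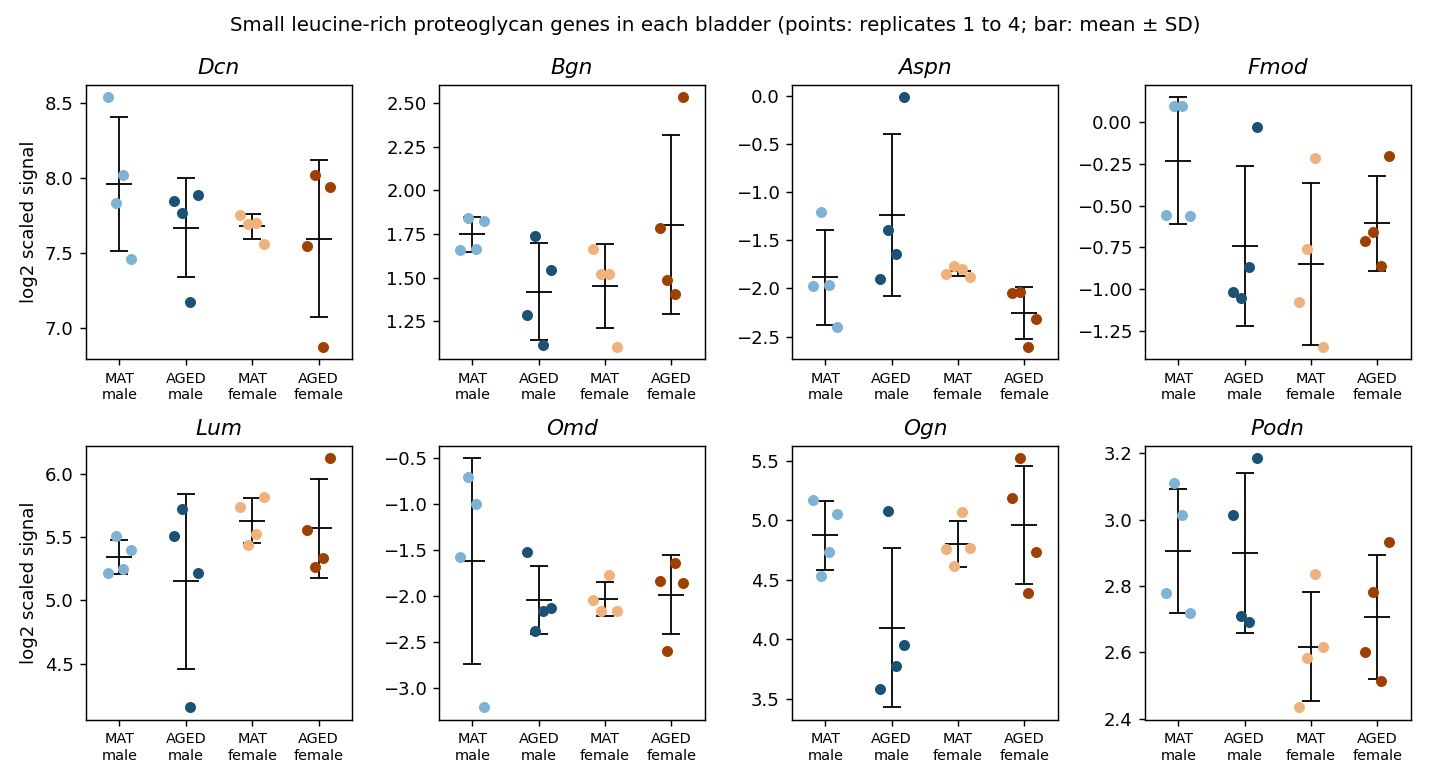
Log2 scaled signal of each of the 8 SLRP genes in every bladder (y axis, own scale per gene, 0 is the 75th percentile of the array). Points are replicates 1 to 4 of a group and bars are mean ± SD; the AGED male arrays are the most spread for Aspn, Lum and Ogn, and the AGED and MAT points overlap in all panels but Aspn in females.

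Decorin (Dcn) and biglycan (Bgn) belong to the class of SLRPs with chondroitin or dermatan sulfate chains. Decorin binds type I collagen and TGF-beta and limits the lateral growth of fibrils. Its levels were 8.53, 7.83, 8.02 and 7.46 in MAT males and 7.85, 7.77, 7.18 and 7.89 in AGED males. In females they were 7.75, 7.69, 7.70 and 7.56 in MAT and 7.55, 8.02, 6.88 and 7.94 in AGED. The groups overlapped in both sexes, and replicate 3 was the lowest AGED array in each. The change was -0.29 in males (95% interval -0.84 to 0.26) and -0.08 in females (-0.63 to 0.47).

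Biglycan is the closest relative of decorin and is also known as a ligand of Toll-like receptors when released from the matrix. It measured 1.66, 1.84, 1.66 and 1.82 in MAT males and 1.28, 1.74, 1.12 and 1.55 in AGED males. It measured 1.67, 1.52, 1.52 and 1.10 in MAT females and 1.79, 1.49, 1.40 and 2.53 in AGED females. In males 3 of the 4 AGED arrays lay under the MAT range, whereas in females the highest value was an AGED array. The change was -0.33 in males (-0.79 to 0.14) and 0.35 in females (-0.12 to 0.82).

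Asporin (Aspn) shares the class of decorin and biglycan by sequence but has an aspartate-rich end in place of the glycosaminoglycan chain. It is known to bind TGF-beta and collagen. The levels were -1.97, -1.21, -1.96 and -2.40 in MAT males and -1.90, -1.39, -1.64 and -0.01 in AGED males. AGED male replicate 4 stood above every MAT male array, and the other AGED males lay within the MAT range. The change in males was 0.65 (-0.06 to 1.36, adjusted p = 0.352 by limma), and without AGED male replicate 4 it was 0.24. In females the levels were -1.85, -1.77, -1.80 and -1.88 in MAT and -2.04, -2.04, -2.60 and -2.32 in AGED. All 4 AGED females lay below all 4 MAT females, which made Aspn the 1 SLRP gene of 8 without overlap. Of all genes tested, 10.8% did not overlap in females, 5.79% with AGED lower. The change in females was -0.43 (-1.14 to 0.28), with a limma adjusted p of 0.720 and an exact two-sided permutation p of 0.0286, the smallest that 4 against 4 arrays allow. In males 0 of 8 did not overlap, against 7.76% of all genes.

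Fibromodulin (Fmod), lumican (Lum) and osteomodulin (Omd) belong to the class with keratan sulfate chains. Fibromodulin guides the cross-linking and early growth of collagen fibrils. It measured -0.56, 0.10, 0.10 and -0.56 in MAT males and -1.02, -1.05, -0.87 and -0.03 in AGED males. It measured -1.08, -0.76, -0.22 and -1.35 in MAT females and -0.71, -0.66, -0.86 and -0.20 in AGED females. In males 3 of the 4 AGED arrays lay under the MAT range and the fourth within it. The change was -0.51 in males (-1.10 to 0.08) and 0.24 in females (-0.35 to 0.83).

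Lumican, known for the ordered collagen of the cornea and present in many connective tissues, measured 5.22, 5.51, 5.25 and 5.40 in MAT males and 5.51, 5.72, 4.16 and 5.22 in AGED males. In females it measured 5.74, 5.43, 5.53 and 5.82 in MAT and 5.56, 5.26, 5.33 and 6.12 in AGED. AGED male replicate 3 stood alone at the low end. The change was -0.19 in males (-0.78 to 0.40) and 0.14 without that array, and -0.06 in females (-0.65 to 0.53).

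Osteomodulin, best known from bone matrix, measured -1.58, -0.70, -0.997 and -3.21 in MAT males and -1.52, -2.38, -2.17 and -2.13 in AGED males. In females it measured -2.05, -2.16, -1.77 and -2.16 in MAT and -1.84, -2.61, -1.64 and -1.86 in AGED. The MAT males had the widest spread of any SLRP group, with an SD of 1.12. The change was -0.43 in males (-1.31 to 0.45) and 0.05 in females (-0.83 to 0.93).

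Osteoglycin (Ogn, also called mimecan) is a member of the class with short keratan sulfate chains that is known for its effect on fibril diameter. Of the 8 genes it had the male change farthest from 0. The levels were 5.17, 4.53, 4.73 and 5.05 in MAT males and 3.58, 5.07, 3.78 and 3.95 in AGED males. Replicates 1, 3 and 4 of the AGED males lay below every MAT male, and replicate 2 lay within the MAT range. The change was -0.78 (-1.42 to -0.14), or 1.71-fold lower, with an unadjusted p of 0.0206 and an adjusted p of 0.214 by limma. Without AGED male replicate 2 it was -1.10 with an adjusted p of 0.0274, which is past both thresholds. In females the levels were 4.76, 4.61, 5.07 and 4.76 in MAT and 5.18, 5.52, 4.39 and 4.74 in AGED, and the change was 0.16 (-0.48 to 0.80).

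Podocan (Podn) belongs to a further class and is known from smooth muscle and the renal glomerulus. It measured 2.78, 3.11, 3.01 and 2.72 in MAT males and 3.01, 2.71, 2.69 and 3.18 in AGED males. In females it measured 2.43, 2.58, 2.83 and 2.62 in MAT and 2.60, 2.78, 2.51 and 2.93 in AGED. The AGED and MAT values overlapped in each sex. The change was -0.01 in males (-0.33 to 0.31) and 0.09 in females (-0.23 to 0.41), the narrowest intervals among the 8 genes.

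**Figure D2:**
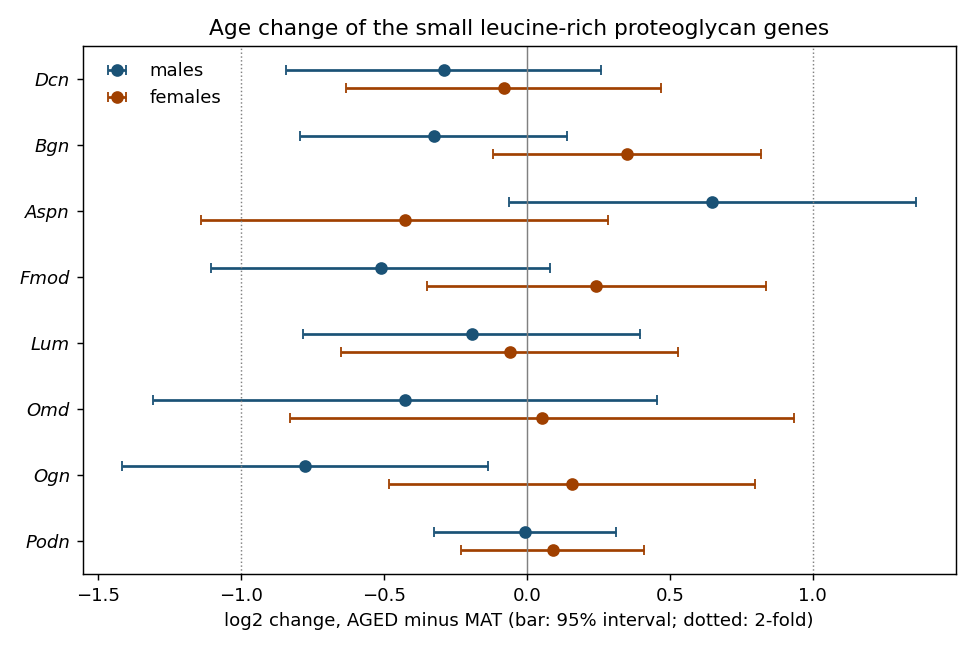
Fitted log2 change from MAT to AGED (x axis) for each SLRP gene, males in blue and females in orange, with 95% intervals from limma; dotted lines mark 2-fold. The interval of Ogn in males, -1.42 to -0.14, is the 1 interval of 16 that leaves out 0.

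The age change did not differ between the sexes for any SLRP gene after adjustment (0 of 8, against 0.149% of all genes). At an unadjusted p under 0.05 there were 3 of 8, against 9.87% of all genes. For Aspn the male change was 1.08 more positive than the female change (0.07 to 2.08, unadjusted p = 0.0379 and adjusted p = 0.476 by limma). For Ogn it was 0.93 more negative (log2 difference -0.93, -1.84 to -0.03, adjusted p = 0.495 by limma). For Bgn the difference was -0.68 (-1.34 to -0.02, adjusted p = 0.4998 by limma). The difference of Aspn was -0.24 without detrending of the signal and -0.0795 with normexp, settings described below, and so turned sign.

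The levels of the 8 genes were also compared between the sexes at each age. At 12 months 0 of 8 were called, against 0.164% of all genes, and at 27 to 30 months 0 of 8, against 3.11%. At 12 months the male-minus-female difference ranged from -0.29 (Lum) to 0.62 (Fmod). At 27 to 30 months Aspn was 1.01 higher in males (0.30 to 1.73, adjusted p = 0.0690 by limma). Ogn differed by -0.86 (-1.501 to -0.22, adjusted p = 0.0830 by limma). Both intervals left out 0 and both adjusted p-values missed the threshold. Ogn passed it at -1.51 without detrending (adjusted p = 0.0147 by limma), at -1.44 with normexp (adjusted p = 0.00819 by limma) and at -1.19 without AGED male replicate 2. Aspn passed it with array weights (1.06, adjusted p = 0.0412 by limma) and without AGED male replicate 1 (1.23). The share of all genes called under these settings was not counted.

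The 2 arrays on which the family was lowest were AGED male replicate 3 and AGED female replicate 3. On each of them 7 of the 8 genes lay below their own mean over the 16 arrays, with a mean deviation of -0.46 and -0.31. MAT male replicate 2 was the highest, with 1 of 8 genes below its mean.

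The way the scanner software flattened each array bears on Aspn, Ogn and Dcn. Feature Extraction multiplies each background-subtracted signal by a factor that depends on the place of the spot (detrending). The 95th percentile of this factor was 2.33 to 2.78 times the 5th on AGED male arrays, 1.21 to 2.07 times on MAT male arrays and 1.11 to 1.26 times on female arrays. The AGED male arrays were therefore the most altered. At the spot of Aspn the factor was 1.60 to 3.25 in AGED males and 0.78 to 1.38 in MAT males. At the spot of Ogn it was 1.12 to 1.74 against 0.89 to 1.05. At the spot of Dcn it was 3.36 and 3.27 on AGED male replicates 3 and 4 but 0.76 and 0.82 on replicates 1 and 2. The factor raised the AGED male signal of Aspn and Ogn on all 4 arrays, and that of Dcn on 2 of 4.

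Without detrending, the male change of Aspn was -0.75 in place of 0.65, that of Ogn was -1.52 with an adjusted p of 0.0185 by limma, and that of Dcn was -0.96. Ogn then passed both thresholds and Aspn turned sign. With normexp background correction, which also leaves detrending out, Aspn changed by -0.39 and Ogn by -1.37 (adjusted p = 0.0271 by limma). The share of all genes called under either setting was not counted, so the passes of Ogn have no such share beside them. When the processed signals were instead set against the median of the probes within 10 rows and columns of each spot, Aspn was 0.53 and Ogn -0.51, neither past the threshold. The median level of those neighbours moved by -0.27 around Ogn and 0.12 around Aspn between MAT and AGED males, where the 5th and 95th percentiles over tested probes were -0.20 and 0.16. The direction for Ogn in males was below 0 under each of these settings, and the direction for Aspn differed between them.

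**Figure D3:**
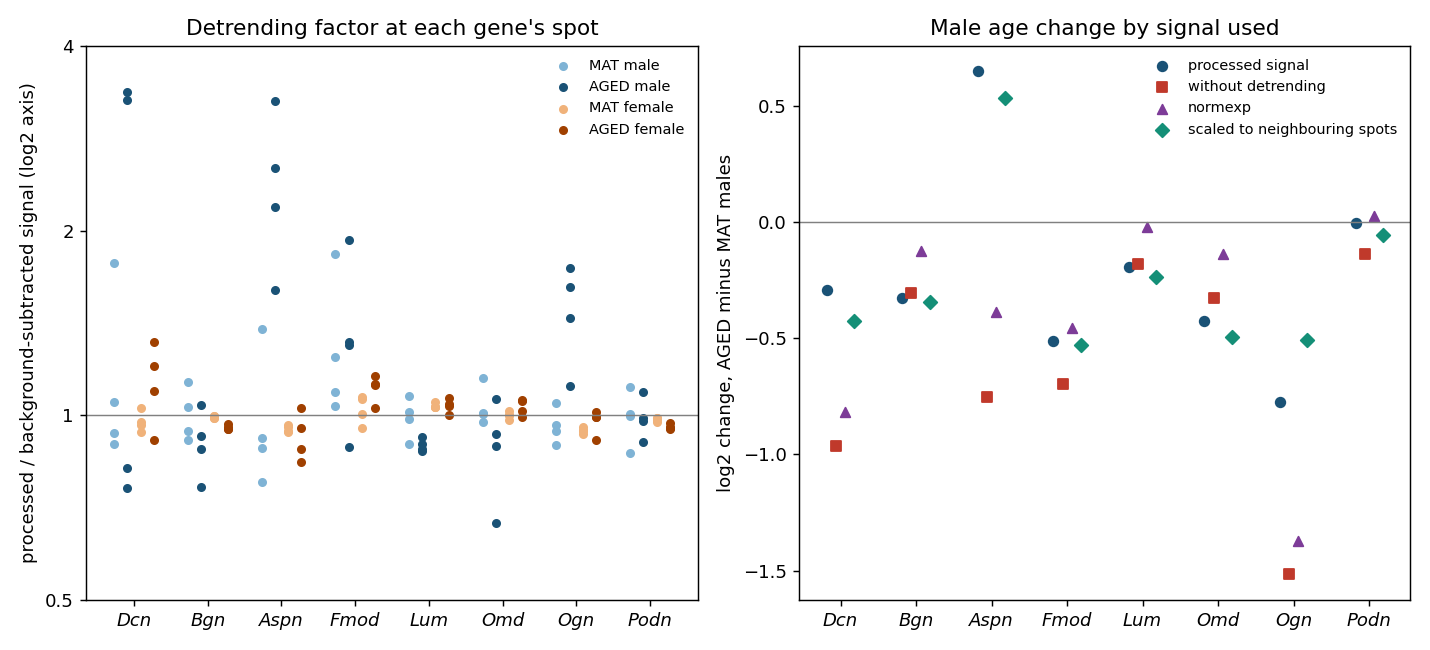
Left, the ratio of processed to background-subtracted signal at the spot of each SLRP gene on every array (log2 axis), which reaches 3.25 for Aspn and 3.36 for Dcn on AGED male arrays. Right, the male log2 change from MAT to AGED with the processed signal, without detrending, with normexp and scaled to neighbouring spots; Aspn runs from 0.65 to -0.75 and Ogn from -0.51 to -1.52.

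In the reference annotation (GRCm38.p6) Ecm2, Aspn, Omd and Ogn follow each other on chromosome 13, Dcn and Lum are neighbours on chromosome 10, and Prelp and Fmod on chromosome 1. Of the genes in the cluster on chromosome 13, Aspn and Ogn had male changes of opposite sign with the processed signal, and the 250 bases before their start sites are shown for that reason, read from RefSeq. Windows were found for 7 of the 9 genes. Capitals mark matches on either strand to TATAAA or CCAAT.
Aspn, chr13:49544193-49544442, plus strand: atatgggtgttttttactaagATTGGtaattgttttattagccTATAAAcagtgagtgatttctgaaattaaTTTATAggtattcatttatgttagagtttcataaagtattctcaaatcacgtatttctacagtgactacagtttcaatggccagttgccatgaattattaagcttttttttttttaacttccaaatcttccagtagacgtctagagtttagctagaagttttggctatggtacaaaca
Ogn, chr13:49607765-49608014, plus strand: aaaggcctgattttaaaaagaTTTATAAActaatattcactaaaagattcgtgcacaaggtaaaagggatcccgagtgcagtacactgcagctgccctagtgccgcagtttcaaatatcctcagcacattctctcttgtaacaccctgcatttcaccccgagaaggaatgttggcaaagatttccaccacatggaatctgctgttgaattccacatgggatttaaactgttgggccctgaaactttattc

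Both windows held 2 matches to TATAAA, which for Ogn overlap each other, and the Aspn window held 1 to CCAAT. Of all 32851 windows of this length, 12.4% held TATAAA and 33.8% held CCAAT. The motif TGANTCA (AP-1) was found in 6.75% of all windows and in neither of these. GC content was 30.0% for Aspn and 42.0% for Ogn, against 64.4% for Bgn. These letters are a description of the window and no test was made of them.

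Of 9 further SLRP genes, 7 had a tested probe (Kera and Nyx had none that passed the filter on dim probes), and 0 were called in either sex. Of all genes, 0.851% were called in males and 0.190% in females. Ecm2, which lies beside Aspn, had changes of -0.53 in males (adjusted p = 0.253 by limma) and -0.68 in females (adjusted p = 0.298 by limma). Its AGED females lay below its MAT females without overlap, as was so for 5.79% of all genes. The other 6 were Optc (-0.45 in males), Chadl (-0.14), Chad (0.07), Tsku (0.18), Epyc (0.25) and Podnl1 (0.41). Of these 7 genes 3 were below 0 in males and 5 in females, against 49.8% and 50.9% of all genes.

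The collagens that SLRPs bind lay on one side of 0 in males. All 9 tested (of 11 listed) had a fitted change below 0 in males, with a median of -0.46, and 8 of 9 in females, with a median of -0.07. Of all genes tested, 49.8% were below 0 in males and 50.9% in females, and 0.851% and 0.190% were called. Col14a1, a fibril-associated collagen that sits on fibril surfaces, was the 1 gene called. It fell by 1.09 in males (SE 0.16, adjusted p = 0.00327 by limma), or 2.12-fold, and its change in females was -0.06. The male fall was -0.71 without detrending (adjusted p = 0.0527 by limma) and -0.54 with normexp (adjusted p = 0.0779 by limma), so the call was lost there. It was also lost, at under 2-fold, with the mean of both its probes (-0.96; second probe -0.84) and with array weights (-0.91). The fibril-forming collagens Col1a1 (-0.54), Col1a2 (-0.46) and Col3a1 (-0.72) passed an unadjusted p of 0.05 in males and not the adjusted one. With Col14a1 this made 4 of 9 at the unadjusted p, against 16.2% of all genes in males.

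The enzymes that build the side chains were counted next. For these and the lists that follow, the share of all genes called was 0.851% in males and 0.190% in females. For chondroitin and dermatan sulfate, 21 genes were tested and 1 was called, Xylt2, which attaches the first sugar to the core protein. It fell by 1.11 in males (SE 0.18, adjusted p = 0.00579 by limma) and measured -0.01 in females. A second probe of Xylt2 changed by -0.17 in males, and the mean of both probes by -0.64, which is under 2-fold. Without detrending the tested probe changed by -2.39. For keratan sulfate, 5 genes were tested and 1 was called. Chst2, a sulfotransferase, fell by 1.20 in males (SE 0.21, adjusted p = 0.0112 by limma) and measured -0.25 in females, and its second probe changed by -0.49 in males. The call was lost, at under 2-fold, with the mean of both probes (-0.85) and with array weights (-0.998), and the change was -1.86 without detrending. Without AGED male replicate 1 the change of Xylt2 was -0.98, and scaled to neighbouring spots -0.96, both under 2-fold. On the array Ogn lay in row 341 and column 38, Chst2 in row 339 and column 32, and Xylt2 in row 376 and column 62. The median level of the neighbouring probes moved by -0.19 around Chst2 and -0.15 around Xylt2 in males, beside the -0.27 around Ogn.

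Of 16 tested growth factors and receptors that SLRPs bind, 0 were called in either sex. In signed order, the male values were highest for Tlr4 (0.35) and Egfr (0.13) and lowest for Tgfb3 (-0.76) and Kdr (-0.33). Of 10 tested proteinases that can cleave SLRPs, Mmp3 (stromelysin 1) was called in both sexes. It rose by 2.47 in males (SE 0.31, adjusted p = 0.00115 by limma), or 5.55-fold, and by 1.90 in females (adjusted p = 0.0269 by limma), or 3.73-fold. The female call was lost without detrending (1.70, adjusted p = 0.174 by limma), with normexp (1.71, adjusted p = 0.105 by limma) and when any female array except AGED replicate 3 was left out (adjusted p = 0.0556 to 0.123 by limma). Of 15 other proteoglycans tested, 0 were called. Sdc2 (syndecan 2) fell by 0.84 in males (adjusted p = 0.0114 by limma), which is under 2-fold. It passed both thresholds without AGED male replicate 2 (-1.01), without detrending (-2.04, adjusted p = 1.33e-05 by limma) and with normexp (-1.81, adjusted p = 6.2e-06 by limma). Scaled to neighbouring spots the change was -0.67, and over all other settings it ran from -2.04 to -0.63. The spot of Sdc2 lay in row 367 and column 66, and the median level of its neighbours moved by -0.18 in males. The detrending factor at its spot was 1.81 to 2.23 in AGED males and 0.86 to 1.02 in MAT males. Gpc6 measured -1.06, and Spock2 (0.70) and Sdc4 (0.17) had the highest male values.

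**Figure D4:**
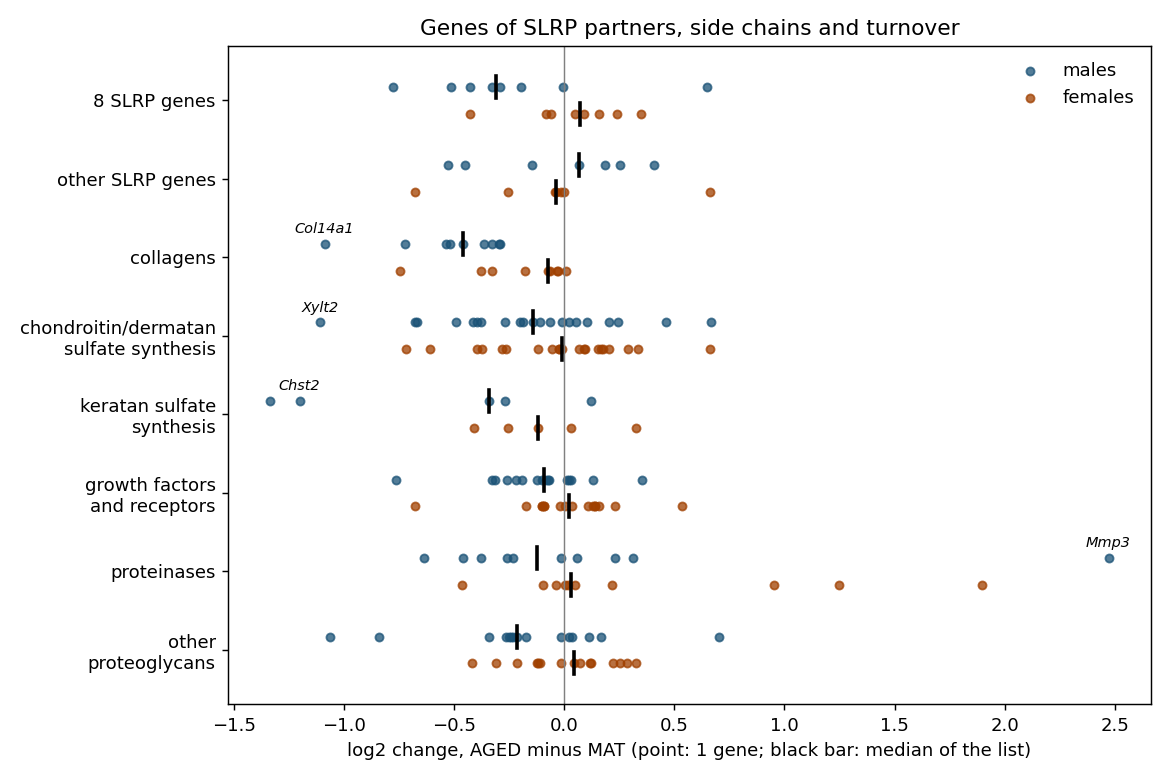
Log2 change from MAT to AGED (x axis) of each tested gene in the SLRP family and 7 lists of partners, males in blue and females in orange, with the median of each list as a black bar. The 9 collagens all lie left of 0 in males, where 49.8% of all genes do, and Mmp3 lies at 2.47 in males and 1.90 in females.

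Markers of fibroblasts, smooth muscle and neutrophils were measured beside these changes. Of 7 fibroblast markers, 7 were tested, 0 were called, and 5 were below 0 in males (49.8% of all genes), with a median of -0.39 (-0.07 in females). Their summed signal, in units of the 75th percentile of the array, was 87.6 to 117 in MAT males and 61.7 to 102 in AGED males, and 90.0 to 108 and 92.5 to 197 in MAT and AGED females. All 7 were well above background on each array. Dpt (-0.74) and Tcf21 (-0.95) passed an unadjusted p of 0.05 in males, where 16.2% of all genes did, and Pdgfra measured 0.09. Smooth muscle markers had a median change of 0.04 in each sex, with sums of 1270 to 1350 in MAT males and 1266 to 1533 in AGED males. Of 3 neutrophil markers, S100a8 and S100a9 rose in males by 2.43 and 3.08 (adjusted p = 0.0211 and 0.0125 by limma; S100a9 against the direction the study lists), with sums of 0.246 to 0.809 in MAT and 1.501 to 5.89 in AGED males, and Ly6g had no tested probe. In females they measured 1.12 and 1.62 (adjusted p = 0.436 and 0.323 by limma), with sums of 0.198 to 0.541 in MAT and 0.712 to 1.90 in AGED. For both, AGED females lay above MAT females without overlap, where 10.8% of all genes did not overlap in either direction. The part of these cells in the SLRP values was not tested.

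Other marker lists had no gene called in either sex. The median changes in males and females were -0.12 and 0.10 for urothelium, 0.05 and -0.13 for endothelium, -0.05 and 0.28 for macrophages, and 0.51 and -0.15 for T cells. They were 0.79 and -0.88 for B and plasma cells, -0.65 and -1.16 for adipocytes, -0.21 and -0.74 for Schwann cells, 0.20 and 0.92 for mesothelium, and -0.44 and -0.11 for skeletal muscle. For T cells the mean level of the list was 0.68 on AGED male replicate 1. On AGED male replicates 2, 3 and 4 it was -0.95, -1.64 and -1.63, and in MAT males -1.80 to -1.09. Of 3 male accessory gland genes 0 passed the filter on dim probes.

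For each SLRP gene the 2 named genes with the most similar profile were found among 15753, by the root mean square distance of values centred over the 16 arrays. Podn was closest to Gas6 (0.116) and Cactin (0.119), against a spread of Podn itself of 0.211. Bgn was closest to Adamts2, the enzyme that trims the amino end of procollagens (0.128), and Cd34 (0.152), against 0.325. Ogn was closest to Pls3 (0.192) and Abhd14a (0.237), against 0.520. Pls3 and Abhd14a changed by -0.64 and -0.75 in males and by 0.03 and -0.21 in females. Both were picked for likeness to Ogn on these same arrays, so their changes are no separate evidence. Lum was closest to Tnfrsf25 (0.159) and Myo1a (0.208), against 0.405. Fmod was closest to Nfkbiz (0.241) and Tprg (0.275), against 0.429. The distances were 0.238 and 0.244 for Dcn (Krtap5-2 and Odf3, spread 0.360), 0.311 and 0.335 for Aspn (Icam4 and Adgrg2, spread 0.570), and 0.305 and 0.378 for Omd (Grifin and Leng9, spread 0.577).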

How the data were processed

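Labelled RNA of 16 bladders was hybridized to Agilent SurePrint G3 arrays in 1 colour. The authors deposited, for every spot, the processed signal intensity that Feature Extraction wrote (background-subtracted and detrended), the raw spot and background intensity, and flags. A second table that the authors deposited holds log2 values centred on each probe's median, and its scale and direction were checked against the scanner values. The submitters' processing notes name Feature Extraction 9.1 and the file headers 10.7.3.1.

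Each processed signal was put on the log2 scale and set against the 75th percentile of its array. Control spots and 399 flagged probe values were left out, and no spot was saturated. By accession, 26582 of 55681 probes had a GRCm38.p6 name. Probes had to be well above background on 4 or more of the arrays, and the brightest such probe stood for its gene. One model of group means (limma 3.58.1, R 4.3.3, 12 residual degrees of freedom) covered all arrays, with adjustment over 26781 genes. Intervals are 95% and unadjusted. The labels do not say how the mice of a group are related, and p-values measure the spread between bladders. The number of arrays limits the precision. The test was checked on simulated data.

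The members and lists were chosen with earlier results of these data known. In each partner list the genes named were those called in either sex or, where none was called, the 2 highest and 2 lowest signed male changes. Col1a1, Col1a2, Col3a1 and the cell markers given singly were named after their values were seen. Replicate numbers were checked for pairing. Alternatives covered scaling, background, filters, probe choice, test, weights, block and left-out arrays, and the values without detrending and those scaled to neighbouring spots were chosen after seeing the data.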

Additional observations from a re-analysis of the deposited data

Results flagged for a closer look

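Decorin in AGED male replicate 3 lay apart from the other 3 AGED males. Its level was 7.18, against 7.77 for the next array, and this gap was 0.830 of the range of the group. This is just past the 95% limit of the test for 4 arrays. It was 1 of 32 combinations of gene and group examined (3.12%), where chance marks about 1 in 20. The detrending factor of this spot was 3.36 on that array.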

How the results depend on the processing

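In males 1 SLRP gene, Ogn, was called with normexp, without detrending and at an unadjusted p with no fold limit, against 0 otherwise. The count ranged from 0 to 1 when 1 array was left out. The share of all genes called was not counted with normexp, without detrending or with an array left out. In females the count was 0 under all settings run, and 7 of 8 changes were below 0 without detrending, against 3. The count whose age change differed between the sexes was 3 at an unadjusted p. Between the sexes at 12 months it was 1 at an unadjusted p (Fmod). At 27 to 30 months it was 1 with normexp and 1 without detrending (Ogn), 1 with array weights (Aspn), 2 at an unadjusted p, and 0 to 1 with 1 array left out. For levels compared between the sexes, the share of all genes is given only at the main thresholds. Male groups without overlap numbered 0 to 2 with 1 array left out. They were Bgn and Ogn without AGED male replicate 2, Fmod without AGED male replicate 4 and Aspn without MAT male replicate 2. In each case the array left out was the one that overlapped the other age. The share of all genes without overlap was not counted with an array left out, where groups separate more readily.

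The sign turned with normexp for Aspn in males (-0.39), Podn in males (0.0272), Col14a1 in females (0.10), and the difference between the sexes of Aspn (-0.0795) and Lum (0.0505). Without detrending it turned for Aspn in males (-0.75), for Fmod (-0.0010), Ogn (-0.0187), Omd (-0.12) and Podn (-0.00061) in females, and for the difference of Aspn (-0.24) and Lum (0.00727). With array weights it turned for Omd in females (-0.0169), Xylt2 in females (0.0015) and the difference of Lum (0.0699). For Xylt2 in females it also turned with the mean of its probes (0.0197) and with scaling to neighbouring spots (0.0301). With 1 array left out the range held 0 for Lum (-0.38 to 0.14) and Podn (-0.10 to 0.0636) in males, and for Col14a1 (-0.15 to 0.0134), Dcn (-0.22 to 0.16), Lum (-0.25 to 0.0415), Ogn (-0.0299 to 0.35), Omd (-0.0636 to 0.26) and Xylt2 (-0.0515 to 0.0528) in females. It also did for the difference of Lum (-0.32 to 0.20). With each sex fitted alone, Col14a1, Xylt2, Chst2 and Mmp3 were not called in males (adjusted p = 0.0964 to 0.170 by limma), nor with the adjusted t-test of the methods. The cause was not tested.

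The replicate numbers did not pair the samples (correlations of same-numbered arrays -0.147 to 0.068). With the replicate block 0 SLRP genes were called in either sex, Ogn in males stayed at -0.78 (adjusted p = 0.249 by limma), and the adjusted p of Mmp3 in females was 0.0808. The slide as a random block could not be fitted beside sex, since each slide holds 1 sex. Median or quantile scaling moved the median of all genes by less than 0.1. The 4 arrays per group limit the precision of each change.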
